A study of Mus musculus with 12 samples.

Results

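Fbxo15, Btbd17, Enpp2, Irak3 and Rab20 are 5 genes of 13508 named genes in a table of FPKM values (fragments scaled to transcript length and library size) from mouse embryonic stem (ES) cells. They were selected on measured values, as genes whose level was lower after Activin A than before it in wild-type cells and in cells without Arkadia, and their levels before and after Activin are therefore given as a description, without a test. The cells were 129SvEv lines, with lines 18 and 26 wild type (WT) and lines 25 and 39 Arkadia -/- (null), so that each genotype was represented by 2 lines. Arkadia, encoded by Rnf111, is an E3 ubiquitin ligase that marks SnoN (Skil) and other inhibitors of SMAD signalling for degradation. Every dish spent 24 h in N2B27 medium on fibronectin and then 4 h with 10 µM SB431542 (SB), which blocks the type I receptor kinases for Activin, Nodal and TGFβ. Dishes were collected at that time, or were washed and cultured with 10 ng/ml Activin A for 3 h or 6 h, and 1 library per line and treatment made 12 libraries in 6 groups of 2. Without a dish that was washed and left without Activin, the effects of Activin, of inhibitor removal, of fresh medium and of elapsed time cannot be told apart. In these bulk libraries, fewer cells that contain a transcript and less of it per cell cannot be told apart either.

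Activin A binds serine/threonine kinase receptors that phosphorylate SMAD2 and SMAD3, which enter the nucleus with SMAD4 and act on DNA together with partners such as FOXH1. The same SMAD complexes can raise or lower transcription, depending on the cofactors they meet. How fast a messenger RNA declines after its transcription is reduced depends also on how long the existing molecules last. The 5 genes have unrelated roles. Fbxo15 encodes an F-box protein, the kind of subunit that brings substrates to SCF ubiquitin ligases, and is a widely used marker of undifferentiated mouse ES cells. Btbd17 encodes a BTB domain protein related to the galectin-3-binding protein, Enpp2 encodes autotaxin, the secreted enzyme that makes lysophosphatidic acid, Irak3 encodes IRAK-M, an inhibitor of Toll-like and interleukin-1 receptor signalling, and Rab20 encodes a small GTPase of endosomes and phagosomes.

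Btbd17 was the gene whose level had dropped most completely by 3 h, and its promoter window is shown for that reason. The locus lies at chr11:114791179-114795985 (mm10, minus strand; NM_028055) and covers 100.0% of the annotated gene. The window, from RefSeq on GRCm38.p6, runs from 250 bases before the annotated start to 50 bases after it at chr11:114795843-114796142, read 5′ to 3′ on the minus strand, with capitals marking the only match to the motifs searched.
Btbd17 promoter: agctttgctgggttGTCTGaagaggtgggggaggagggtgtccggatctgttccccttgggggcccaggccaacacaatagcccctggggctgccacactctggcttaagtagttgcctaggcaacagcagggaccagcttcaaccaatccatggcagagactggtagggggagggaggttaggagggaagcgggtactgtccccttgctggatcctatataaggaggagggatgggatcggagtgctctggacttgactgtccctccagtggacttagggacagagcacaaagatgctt
The motifs, searched on both strands, were the SMAD box CAGAC, the FOXH1 sites AATCCACA and AATACACA, the octamer ATGCAAAT and the TATA box TATAAA, none of which overlap. The match is CAGAC on the opposite strand, which starts at base -236 relative to the annotated start. That motif is common: of 32851 RefSeq mouse promoters of the same length, 49.59% hold it, against 0.86% for AATCCACA, 0.98% for AATACACA, 1.74% for ATGCAAAT and 13.62% for TATAAA. The windows of Rab20 (1) and Irak3 (2 annotated starts) held none of these letters, and Enpp2 and Fbxo15 were not searched. The Irak3 locus measured here starts 24036 bases from the annotated start, so its windows lie outside that locus. A match here is a run of letters and not a measured binding site.

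A rise of known Activin and Nodal targets after SB, and the genotype, were both visible in the libraries. Rnf111 was at 3.19 to 4.27 FPKM in the 6 WT libraries and at 0.539 to 0.855 FPKM in the 6 null libraries. Of 14 genes known to be induced by Activin or Nodal, 12 rose at 3 h and 13 at 6 h in each genotype, for example Nanog from 3.70 ± 0.358 FPKM to 82.5 ± 3.66 FPKM at 3 h in WT (SD, n = 2). All 8 ES cell markers were above 1 FPKM, and summed to 1477 to 2274 FPKM. Markers of other cell types were low but not absent: the sums were 10.97 to 23.9 FPKM for 5 trophoblast genes, 2.94 to 5.01 for 4 endoderm genes and 6.42 to 12.5 for 3 macrophage genes other than Itgam, which alone reached 76.0 to 532 FPKM. In this count Sox17 and Spi1 were each listed at 0 in 2 libraries. The summed level of 5 neural genes, led by Tubb3, was 30.3 to 35.4 FPKM in WT SB, 23.5 to 23.7 at 3 h and 21.6 to 22.2 at 6 h, and 28.1 to 34.9, 26.3 to 30.7 and 21.1 to 25.5 in null. The sum of 6 fibroblast genes was also highest in WT SB among WT libraries, at 10.9 to 13.7 FPKM against 9.39 to 9.72 at 3 h and 9.43 to 9.71 at 6 h, and was 12.04 to 17.3, 12.01 to 15.3 and 10.3 to 11.5 FPKM in null. The part of these markers in the results below was not tested. Read totals are unknown, and depths relative to the shallowest library, null line 39 at 6 h, ranged up to 1.81. Null Activin libraries stood at 1 to 1.33 and null SB libraries at 1.47 and 1.72.

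All 5 genes passed the filter for testing (2 or more libraries with 1 FPKM or more), as did 12823 genes in all. Differences below are in log2(FPKM + 1) from limma fitted to all these genes, with p-values adjusted by the Benjamini-Hochberg method over all of them and a threshold of 0.05. Their p-values are based on how far the 2 lines of each group lay apart, with 1 estimate of that spread for all 6 groups. In the SB contrasts that served to choose the genes, the shares of all genes called lower were 9.83% (WT, 3 h), 6.31% (WT, 6 h), 7.14% (null, 3 h) and 5.53% (null, 6 h), and nothing is read from them for the 5 genes.

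**Figure D1:**
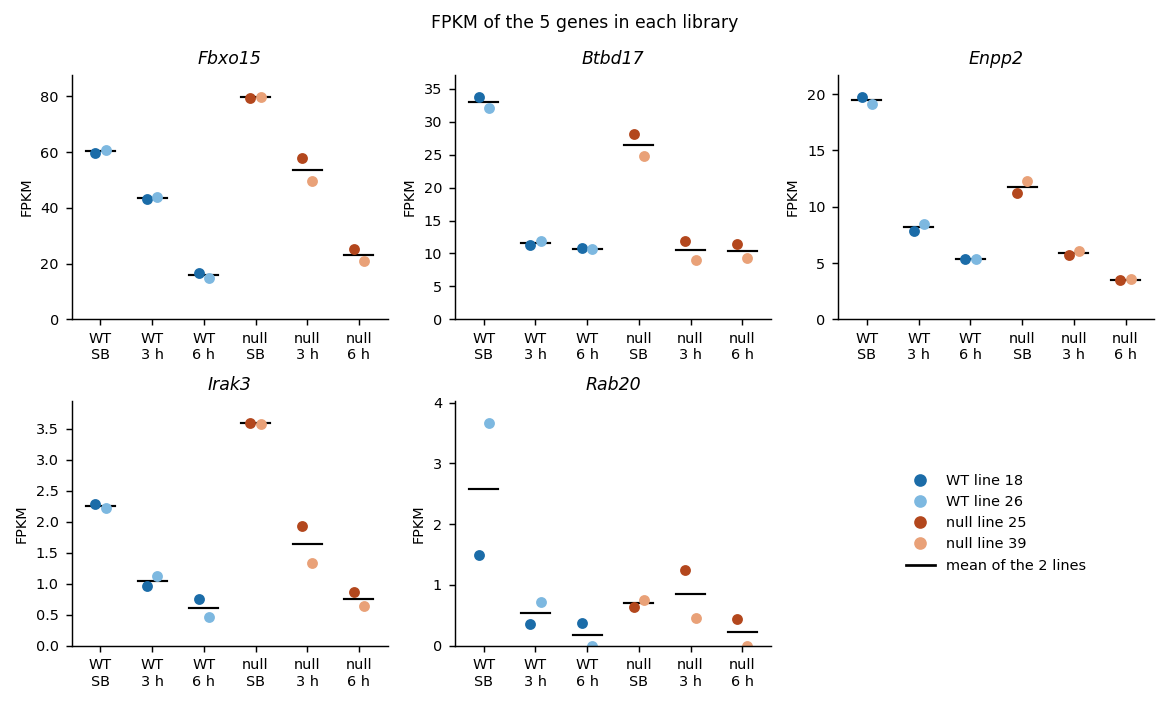
FPKM (vertical axis, from 0, a separate scale for each gene) of the 5 genes in each of the 12 libraries, with 1 point per cell line and a bar at the mean of the 2 lines. Fbxo15, Btbd17, Enpp2 and Irak3 were highest in the SB libraries of each genotype, whereas Rab20 was between 0 and 3.66 FPKM with no such order in null lines.

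Fbxo15, the F-box gene, was the most abundant of the 5 per length and declined late. Its locus, chr18:84934440-84981556 (mm10, plus strand; NM_015798), covers the whole annotated gene, and Timm21 lies inside it on the opposite strand. In WT lines 18 and 26 it stood at 59.7 and 60.7 FPKM in SB, 43.1 and 43.8 at 3 h, and 16.8 and 14.8 at 6 h. In null lines 25 and 39 it stood at 79.3 and 79.8 FPKM in SB, 57.7 and 49.8 at 3 h, and 25.1 and 20.8 at 6 h. Every line was lower at 3 h than in SB and lower again at 6 h, and no group's range overlapped that of its neighbour in the order null SB, WT SB, null 3 h, WT 3 h, null 6 h and WT 6 h. The log2 change from SB was -0.46 at 3 h and -1.87 at 6 h in WT (SE 0.102 each), and -0.56 and -1.76 in null. These put Fbxo15 at rank 685 of 12823 genes from the most lowered at 3 h in WT, and at rank 7 at 6 h; in null the ranks were 272 and 4. Its values move in whole steps (within 0.02 of a step), as single reads would give, and amount to 896 to 6204 steps per library. If a step is 1 read, counting error is small beside the differences.

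Btbd17, the galectin-3-binding protein relative whose promoter is shown above, declined early and then stayed level. WT lines 18 and 26 had 33.8 and 32.1 FPKM in SB, 11.3 and 11.9 at 3 h, and 10.8 and 10.7 at 6 h. Null lines 25 and 39 had 28.1 and 24.9 FPKM in SB, 11.9 and 8.99 at 3 h, and 11.4 and 9.31 at 6 h. All 8 Activin libraries lay below all 4 SB libraries, and among the 4 Activin groups only WT 3 h and WT 6 h had ranges that did not overlap. The log2 change from SB was -1.43 at 3 h and -1.53 at 6 h in WT (SE 0.129 each), and -1.27 and -1.28 in null. In WT the rank from the most lowered gene was 16 at 3 h and 14 at 6 h.

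Enpp2, the autotaxin gene, declined in both intervals and was lower in null than in WT lines at every time. Its locus, chr15:54838904-54920125 (mm10, minus strand; NM_001285995), covers 71.3% of the annotated gene and ends 32767 bases short of the most upstream annotated start, so transcripts from that start are only partly represented. WT lines 18 and 26 had 19.8 and 19.1 FPKM in SB, 7.84 and 8.50 at 3 h, and 5.39 and 5.33 at 6 h. Null lines 25 and 39 had 11.2 and 12.3 FPKM in SB, 5.68 and 6.06 at 3 h, and 3.46 and 3.56 at 6 h. The order of the groups was WT SB, null SB, WT 3 h, null 3 h, WT 6 h and null 6 h, with no overlap between neighbours. The log2 change from SB was -1.16 at 3 h and -1.68 at 6 h in WT (SE 0.0706 each), and -0.89 and -1.50 in null.

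Irak3, the inhibitor of interleukin-1 receptor signalling, was low throughout. Its locus, chr10:120141657-120178094 (mm10, minus strand; NM_028679), covers 60.2% of the annotated gene, starts 24036 bases from the annotated start and contains the antisense gene Gm47009. WT lines 18 and 26 had 2.28 and 2.22 FPKM in SB, 0.963 and 1.12 at 3 h, and 0.746 and 0.466 at 6 h. Null lines 25 and 39 had 3.59 and 3.58 FPKM in SB, 1.94 and 1.34 at 3 h, and 0.860 and 0.633 at 6 h. The SB libraries were the highest of each genotype, the null SB pair lay above the WT SB pair, and the WT and null ranges overlapped at 6 h. The log2 change from SB was -0.67 at 3 h and -1.02 at 6 h in WT (SE 0.139 each), and -0.81 and -1.40 in null; at such low FPKM the added 1 makes these smaller than the change in FPKM itself.

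Rab20, the endosomal GTPase gene, went against its selection as a well-covered gene that is lowered in both genotypes. Its locus is chr8:11454257-11478339 (mm10, minus strand; NM_011227), overlapped by Gm20100 and E230013L22Rik. WT lines 18 and 26 had 1.49 and 3.66 FPKM in SB, 0.352 and 0.726 at 3 h, and 0.366 FPKM and a listed 0 at 6 h. Null lines 25 and 39 had 0.642 and 0.753 FPKM in SB, 1.25 and 0.452 at 3 h, and 0.437 FPKM and a listed 0 at 6 h. Of the 5 genes it is the one with a null line, line 25, that was higher at 3 h than in SB, and its log2 change from SB in null was 0.09 at 3 h and -0.50 at 6 h (SE 0.338), against -1.16 and -1.54 in WT. The values again move in whole steps, and only 29 steps were recorded in the 12 libraries. In WT line 18 in SB a step was 0.373 FPKM, against 0.0148 FPKM for Fbxo15. Whether a step of Rab20 is 1 read was not tested, and the intervals below take it as 1 read. The WT lines together had 16 steps in SB (exact Poisson 95% interval 9.15 to 26.0, covering counting error only), 3 at 3 h (0.619 to 8.77) and 1 at 6 h (0.025 to 5.57). The null lines together had 4 in SB (1.09 to 10.2), 4 at 3 h (1.09 to 10.2) and 1 at 6 h (0.025 to 5.57). These null intervals overlap, and on so few steps a change in null lines could not be told from none.

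Of the 4 genes other than Rab20, Btbd17 and Fbxo15 stood apart in the share of the decline reached at 3 h. Enpp2 and Irak3 overlapped each other. At 3 h, Btbd17 was left at 37.3% ± 3.87 of the same line's SB level, Irak3 at 46.0% ± 7.60, Enpp2 at 46.1% ± 5.01 and Fbxo15 at 69.9% ± 5.01 (SD, n = 4 lines each). At 6 h the levels left were 35.8% ± 3.92, 23.8% ± 6.47, 28.8% ± 1.57 and 27.6% ± 3.18 in the same order of genes. Fbxo15 thus had the most left at 3 h in each of the 4 lines, while at 6 h Btbd17 had the most left in 3 of the 4 lines, and in WT line 18 Irak3 did, at 32.7% against 32.0%. The share of the 6 h difference from SB that was already present at 3 h, in FPKM, was 97.8% ± 3.24 for Btbd17, 75.6% ± 5.56 for Enpp2, 71.3% ± 11.95 for Irak3 and 41.6% ± 6.34 for Fbxo15. The ranges over lines were 94.4 to 102.1% for Btbd17, 71.3 to 83.0% for Enpp2, 60.5 to 85.9% for Irak3 and 36.9 to 50.9% for Fbxo15, so Enpp2 and Irak3 overlapped each other and neither Btbd17 nor Fbxo15 overlapped any other gene. On the log2(FPKM + 1) scale the shares were 96.4%, 64.1%, 62.3% and 28.2%. No share is given for Rab20, whose steps are too few.

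**Figure D2:**
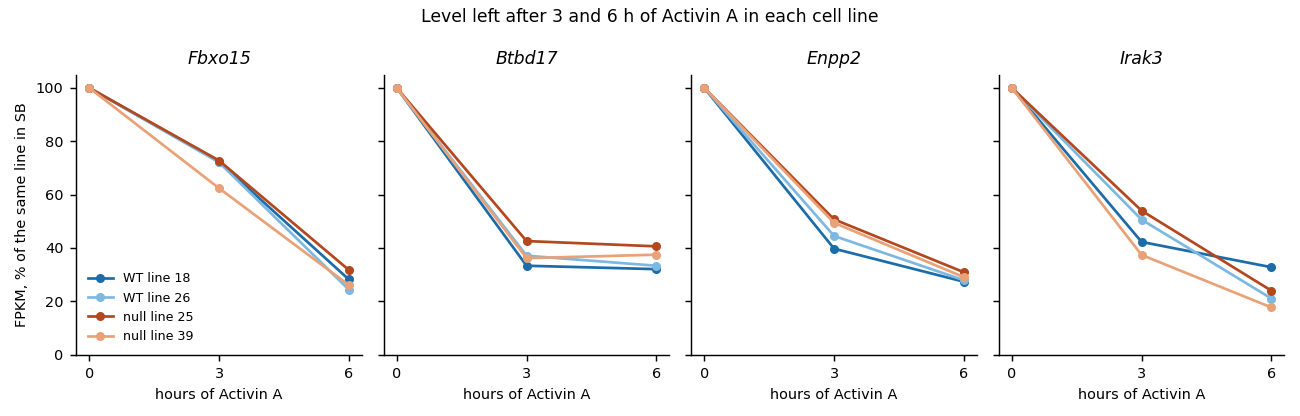
FPKM as a percent of the same line's SB level (vertical axis, from 0) against hours of Activin A (horizontal axis), with 1 line per cell line. Btbd17 is flat after 3 h, near 35.8% on average, and Fbxo15 goes from 69.9% at 3 h to 27.6% at 6 h.

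Rates per hour were taken as log2 ratios of FPKM, without the added 1. Fbxo15 changed by -0.17 per hour from 0 to 3 h and by -0.45 from 3 to 6 h, on average over the 4 lines. Btbd17 showed the opposite order, with -0.48 and -0.02 per hour. Enpp2 (-0.38 and -0.22) and Irak3 (-0.38 and -0.32) slowed less on average. Fbxo15 was faster in the later interval in 4 of 4 lines, and Btbd17 and Enpp2 were slower in 4 of 4. Irak3 was slower in WT line 18 (-0.41 and -0.12) and null line 39, and faster in WT line 26 (-0.33 and -0.42) and null line 25. On log2(FPKM + 1), the share of its 6 h change present at 3 h was 52.95% in WT line 26 and 49.4% in null line 25. The direction for WT line 26 therefore depends on the scale.

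Between 3 and 6 h, Fbxo15 and Enpp2 fell in both genotypes, whereas Btbd17, Irak3 and Rab20 did not pass the test. Since the 6 h libraries had entered the choice of these genes, the p-values of this comparison are not fully independent of it. In WT, Fbxo15 fell by 1.41 on the log2 scale (SE 0.102, limma adjusted p = 0.0022) and Enpp2 fell by 0.53 (SE 0.0706, limma adjusted p = 0.0098), each in 2 of 2 lines. In null, the falls were 1.19 (limma adjusted p = 0.0027) and 0.61 (limma adjusted p = 0.0051), again in 2 of 2 lines. These were 2 of 5 genes in each genotype, where 1.31% of all genes tested were called lower in WT and 1.86% in null. Because the choice of the 5 genes took in their 6 h values, no excess over that share is read from the count. Irak3 differed by -0.35 in WT (95% interval -0.67 to -0.03, limma adjusted p = 0.25) and by -0.59 in null (-0.91 to -0.27, limma adjusted p = 0.051). Leaving out WT line 18 made the WT value -0.53, leaving out WT line 26 made it -0.17, and a pseudocount of 0.1 made it -0.72, and it passed the test under none of these. With the cell line as a replicate block, which pairs the libraries of a line, the adjusted p of Irak3 in null was 0.031, and with quantile normalization 0.049. Btbd17 differed by -0.10 in WT (-0.39 to 0.20) and -0.01 in null (-0.30 to 0.28); changes of up to those bounds may have gone undetected. For Rab20 the intervals were wider, -1.16 to 0.38 in WT and -1.36 to 0.18 in null.

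The WT calls were lost without either WT line, and the null calls without any 1 of the 4 lines. Leaving out a WT line left the null values at -1.19 for Fbxo15 and -0.61 for Enpp2. What changed in null was then the estimate of spread shared by the groups, which rested on fewer libraries. Without WT line 18 the adjusted p-values in WT were 0.29 for Fbxo15 and 0.43 for Enpp2, and without WT line 26 they were 0.31 and 0.56. In null, leaving out any 1 of the 4 lines (18, 26, 25 or 39) gave limma adjusted p-values of 0.051 to 0.078 for Fbxo15 and 0.078 to 0.11 for Enpp2. The sizes moved little: -1.50 to -1.31 and -0.59 to -0.47 in WT, and -1.22 to -1.17 and -0.63 to -0.58 in null.

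Whether the decline differed without Arkadia was asked by the genotype difference in each change. The 5 genes were chosen as lowered from SB in both genotypes, which favours small differences in those changes, so their values here are a description and no evidence that the decline is the same. No gene of the 12823, and none of the 5, passed the limma test in the change from SB to 3 h (0%), from SB to 6 h (0%) or from 3 to 6 h (0%). At an unadjusted p under 0.05 there were 654, 382 and 486 genes; quantile normalization called 2, 0 and 0, and the replicate block, pairing by cell line, called 3, 0 and 0. For Fbxo15, null minus WT was -0.10 at 3 h (95% interval -0.43 to 0.23) and 0.11 at 6 h (-0.21 to 0.44), against WT changes of -0.46 and -1.87. The corresponding values for Btbd17 were 0.16 (-0.25 to 0.58) and 0.25 (-0.16 to 0.67). Enpp2 differed by 0.27 at 3 h (0.04 to 0.49) and by 0.19 at 6 h (-0.04 to 0.41), that is, a smaller drop in null lines on this scale, which did not pass the test over all genes. Irak3 differed by -0.14 (-0.59 to 0.31) and -0.37 (-0.82 to 0.07). Rab20 had the largest difference of the 5, 1.25 at 3 h (0.16 to 2.33), on 16 WT and 4 null steps in SB. For comparison, the mRNA of Skil, whose protein SnoN is the Arkadia target, was at 11.02, 37.1 and 28.4 FPKM in WT. In null it was at 8.39, 16.0 and 14.1 FPKM (means in SB, at 3 h and at 6 h). Its differences in the change, -0.81 at 3 h and -0.61 at 6 h, did not pass either (limma adjusted p = 0.084 and 0.51).

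The level itself differed between genotypes for Enpp2. It was lower in null than in WT lines by 0.68 on the log2 scale in SB (log2 difference -0.68, SE 0.0706, limma adjusted p = 0.0065) and by 0.50 at 6 h (-0.50, limma adjusted p = 0.036), and both null lines were below both WT lines at each time. At 3 h the difference of -0.42 did not pass (limma adjusted p = 0.061). Few genes were called in these comparisons, 0.312% in SB, 0.382% at 3 h and 0.211% at 6 h, in either direction. The SB call was lost without WT line 18 (adjusted p = 0.43), WT line 26 (0.39) or null line 39 (0.067). The 6 h call was lost without WT line 18 (0.63), WT line 26 (0.68) or null line 39 (0.11), and with quantile normalization (0.067).

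The other genes pointed to either side without passing the limma test at any time. Fbxo15 was higher in both null lines than in both WT lines in SB, at 3 h and at 6 h, by 0.40, 0.30 and 0.51 (adjusted p = 0.19, 0.29 and 0.11). Calls that Fbxo15 gained in SB and at 6 h without null line 25 are not read. That fit had 1 null library per group, and counts of calls over all genes ranged widely when a line was left out. Irak3 differed by 0.50, 0.36 and 0.12 (adjusted p = 0.21, 0.33 and 0.68). Btbd17 differed by -0.31, -0.14 and -0.06 (limma adjusted p = 0.33, 0.69 and 0.85), and without null line 25 by -0.39 in SB. Rab20 differed by -1.01 in SB and by 0.24 and 0.04 after Activin; leaving out WT line 18 made the SB value -1.46, leaving out WT line 26 made it -0.55, and a pseudocount of 0.1 made it -1.62. Averaged over the 3 treatments, with the libraries of a line taken as independent, Enpp2 was lower in null (-0.53, limma adjusted p = 0.00043), and Fbxo15 (0.40, 0.0076) and Irak3 (0.33, 0.042) were higher; 8.78% of all genes were called there. Without WT line 18 or 26 none of these 3 calls held (adjusted p = 0.068 and 0.066 for Enpp2, 0.21 and 0.20 for Fbxo15, 0.32 and 0.31 for Irak3), and Irak3 also lost its call without null line 25 (0.090) or 39 (0.058), or with a pseudocount of 0.1 (0.062). Without null line 25 the averaged difference of Btbd17 was -0.30, with 1 null library left per group. With the mean of each line as the unit, no gene was called, and the adjusted p-values were 0.13, 0.23 and 0.33 for Enpp2, Fbxo15 and Irak3.

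**Figure D3:**
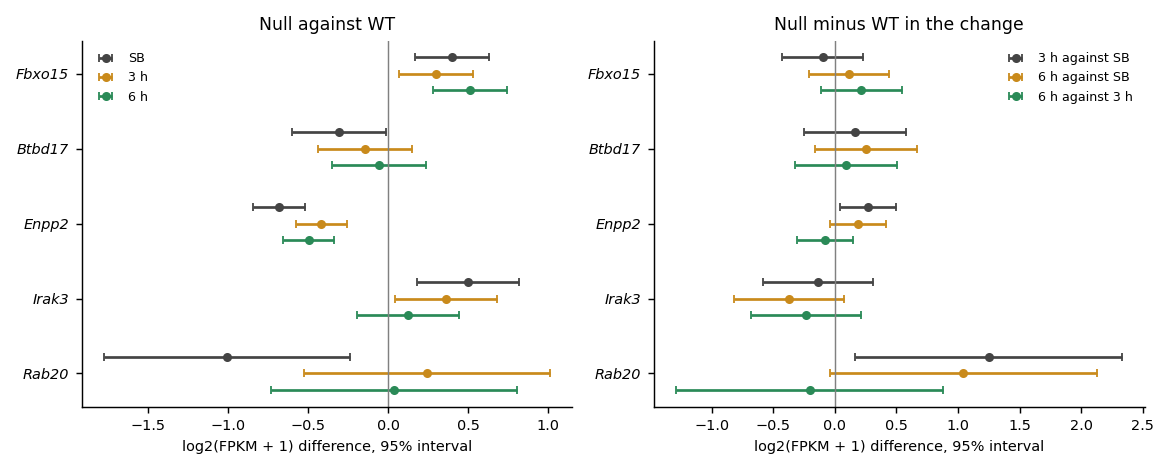
Left, null minus WT difference in level, and right, null minus WT difference in the change, for each of the 5 genes (horizontal axes in log2(FPKM + 1), bars are 95% intervals from limma, not adjusted for the number of genes). Enpp2 lies below 0 in SB, at 3 h and at 6 h on the left, at -0.68, -0.42 and -0.50, and Rab20 has the widest intervals.

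Genes with the most similar profiles were ranked by Pearson correlation of log2(FPKM + 1) over the 12 libraries, among 7213 tested genes with a mean of at least 5 FPKM. The libraries share lines, treatments and depth, so these are descriptions. Closest to Fbxo15 were Upp1, a uridine phosphorylase (r = 0.983), and the metallothionein genes Mt1 (0.973) and Mt2 (0.967). Mt1 had mean levels of 238, 172 and 108 FPKM in WT SB, at 3 h and at 6 h. Closest to Btbd17 were Topors, a SUMO and ubiquitin ligase (0.985), the glucose transporter gene Slc2a1 (0.984) and the integrin gene Itga6 (0.981). Slc2a1 went from 132 FPKM in WT SB to 46.3 at 3 h and 48.6 at 6 h, early and then level as for Btbd17. Closest to Enpp2 were the asparaginyl-tRNA synthetase gene Nars (0.980), the pyruvate kinase gene Pkm (0.971) and Zbtb8a (0.965). Closest to Irak3 were Tdh, the threonine dehydrogenase gene that is highly expressed in mouse ES cells (0.959), Enox1 (0.955) and Plin3 (0.947). Rab20 had weaker neighbours, Ttc21b (0.877), Cipc (0.847) and E430025E21Rik (0.835), on its few steps. Among the 5 genes, the highest correlations were between Fbxo15 and Irak3 (0.915), both highest in null SB, and between Btbd17 and Enpp2 (0.902), both highest in WT SB; Fbxo15 and Btbd17 had 0.677.

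The pathways and families around the 5 genes were followed through 7 lists, in which genes were called in both directions. The lysophosphatidic acid list had the largest share called lower, 8 of 16 genes at 3 h in WT. The shares of all genes called higher, against which their counts stand, were 12.6% (WT, 3 h), 9.59% (WT, 6 h), 6.5% (null, 3 h) and 7.87% (null, 6 h), beside the shares called lower given above. With quantile normalization the split between higher and lower calls shifted towards lower, from 1622 and 1260 to 1372 and 1699 in WT at 3 h, from 1230 and 809 to 1160 and 1328 in WT at 6 h, and from 1009 and 709 to 961 and 1008 in null at 6 h; in null at 3 h it went from 834 and 915 to 964 and 1103. The median log2 change of all genes lay between -0.01 and 0.02 in the 4 comparisons. In what follows, counts are genes called by limma against SB.

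Of 41 SCF and F-box genes, the family of Fbxo15, 4 were lower and 6 higher at 3 h in WT and 2 and 4 at 6 h, with 5 and 2, then 4 and 4, in null. The median change was -0.10 and -0.02 in WT. Ccnf, the cyclin F gene, fell by 0.45 at 6 h in WT (adjusted p = 0.0051), and Fbxo21 fell by 0.43 (0.018). Fbxo25 rose by 0.62 at 6 h in WT (0.0020). Of 17 genes of the naive or ES cell state, a state that Fbxo15 marks too, 7 were lower and 2 higher at 3 h in WT and 5 and 1 at 6 h, with 5 and 1, then 4 and 1, in null, and median changes of -0.05 and -0.05 in WT. Gbx2, a homeobox gene of naive cells, changed by -1.44 at 3 h and -1.50 at 6 h in WT, and Tdh by -0.66 and -1.23. Dppa5a rose by 0.64 at 6 h in WT (adjusted p = 0.026), and Dppa2 differed by 0.36 (0.28). In WT, Gbx2 had most of its 6 h change at 3 h, as Btbd17 did, while Tdh had a smaller share of it.

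Of 16 genes listed for the lysophosphatidic acid pathway, in which Enpp2 acts, 8 were lower and 2 higher at 3 h in WT and 5 and 1 at 6 h. In null the counts were 3 and 1, then 5 and 1. The 16 include Enpp3 and Enpp4, which are relatives of Enpp2 by family. The median changes were -0.33 and -0.16 in WT and -0.22 and -0.23 in null. Enpp3, a related ectonucleotide pyrophosphatase gene, fell by 1.00 at 3 h in WT (limma adjusted p = 0.00039) and by 0.78 in null (0.0024). Plpp1, which encodes a phosphatase that degrades lysophosphatidic acid, fell by 0.46 at 6 h in WT (0.0068) and differed by -0.23 in null (0.079). Agpat5, an acyltransferase gene that uses lysophosphatidic acid, rose by 0.26 at 6 h in WT (0.031) and by 0.27 in null (0.030), and the receptor gene Lpar6 differed by 0.24 in WT (0.12).

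Of 18 genes of Toll-like and interleukin-1 receptor signalling, the setting of Irak3, 3 were lower and 2 higher at 3 h in WT and 1 and 2 at 6 h, with 2 and 2, then 0 and 2, in null. The median change was -0.15 at 3 h and -0.07 at 6 h in WT. The adaptor gene Myd88 fell by 0.94 at 3 h in WT (limma adjusted p = 0.043) and differed by 0.02 in null (0.96). At 6 h in WT, Myd88 (-0.64, 0.14), Ticam1 (-0.40), Ikbkb (0.09) and Tab2 (0.10) did not pass. Of 27 Rab and endocytic genes, 4 were lower and 2 higher at 3 h in WT and 1 and 1 at 6 h, with 2 and 1, then 0 and 2, in null, and median changes of -0.17 and -0.09 in WT. Rab11a, a gene of recycling endosomes, rose by 0.46 at 6 h in WT and by 0.55 in null (limma adjusted p = 0.011 and 0.0056). Rab35 fell by 0.44 at 3 h in WT (0.023) but did not pass at 6 h (-0.30, 0.086). In null, Rab35 did not pass at 3 h (-0.26, 0.13) or at 6 h (-0.24, 0.16). Rab10 (-0.26) and Rab21 (0.64) did not pass at 6 h in WT.

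Of 11 BTB domain and galectin-3-binding genes, the relatives of Btbd17, 3 were lower and 0 higher at 3 h in WT and 2 and 1 at 6 h, with 3 and 0, then 2 and 0, in null. The median change was 0.04 at 3 h and -0.07 at 6 h in WT. Lgals3, the galectin-3 gene, fell by 0.52 at 6 h in WT (limma adjusted p = 0.038). Btbd2 fell by 0.35 at 3 h in WT (0.013), and in null by 0.27 at 3 h (0.042) and at 6 h (0.043). At 6 h in WT, Btbd2 (-0.22, 0.071), Btbd1 (0.00) and Btbd9 (0.24) did not pass. Of 17 SMAD corepressors and partners, 3 were lower and 5 higher at 3 h in WT and 1 and 2 at 6 h, with 0 and 4, then 1 and 3, in null, and median changes of 0.16 and 0.16 in WT. Skil rose by 1.66 at 3 h in WT and by 0.86 in null (limma adjusted p = 1.3e-06 and 0.00014). Atf3 rose by 0.46 at 3 h in WT (0.024) but did not pass at 6 h (0.37, 0.060). In null, Atf3 did not pass at 3 h (0.22, 0.21) or at 6 h (0.21, 0.23). Foxh1, the SMAD partner gene, fell by 0.33 at 6 h in WT (0.029) and by 0.44 in null (0.011). Ncor1 differed by -0.40 at 6 h in WT (0.12).

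**Figure D4:**
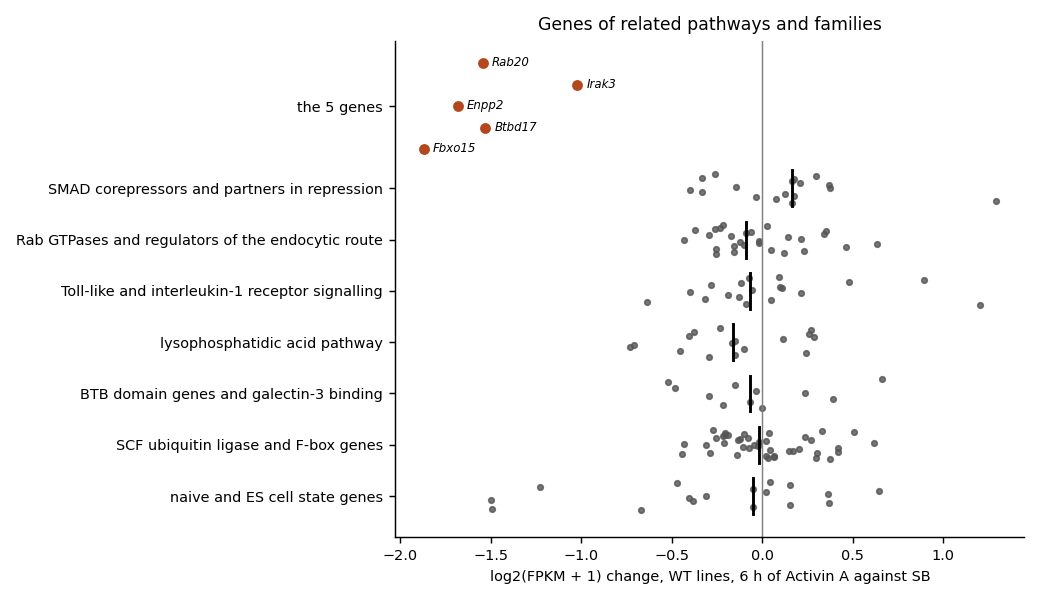
log2(FPKM + 1) change at 6 h of Activin A against SB in WT lines (horizontal axis) for the 5 genes, at the top, and for the tested genes of 7 related lists, with 1 point per gene and a black bar at the list's median. The list medians lie between -0.16 and 0.16, and the 5 genes, chosen for low values here, lie between -1.87 and -1.02.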

How the data were processed

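Poly(A) RNA of 12 libraries was sequenced as single reads, per the labels' protocols. The deposited values are FPKM per gene locus, per the file headers, and the build is mm10, per the submitters' processing notes. Aligner, quantifier, strand setting and scaling of the libraries: not given in the sources used here. Values of overlapping genes are therefore uncertain. Of 17446 loci, 2666 without a name and 27 with a status other than OK were left out, as were 1245 further loci of a name, keeping the locus with the highest mean. Each library's FPKM summed to 578104 to 805752. Of the genes tested, 201 had an exact 0 in at least 1 library, 5 of them with a median above 10 FPKM, so a listed 0 can be a failed estimate.

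The model for log2(FPKM + 1) had 6 group means and trended moderated variances (limma 3.58.1, R 4.3.3), and tests were two-sided. It was tested on simulated data. Levels, shares and figures were computed with Python 3.11.15. Loci were compared with the GENCODE annotation of GRCm38. Libraries of a line come from the same cell line, which pairs them; the difference between lines correlated across treatments at r = 0.0165 to 0.0537 in WT and 0.246 to 0.349 in null. Alternatives were a pseudocount of 0.1, no filter, a filter at 5 FPKM, quantile normalization, the line as a block, leaving out each line, and line means. The 5 genes and the lists were chosen with earlier results of these data known. Named besides the 5 genes were the 3 most correlated genes of each, the 2 lowest and 2 highest genes per list in WT at 6 h with a mean of at least 5 FPKM, and response genes; 1 gene that this rule names is not reported here.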

Additional observations from a re-analysis of the deposited data

How the results depend on the processing

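Across all genes, the replicate block, pairing by cell line, raised the calls against SB to 4772 (WT, 3 h), 4342 (WT, 6 h), 3788 (null, 3 h) and 4026 (null, 6 h) from 2882, 2039, 1749 and 1718, those at 6 h against 3 h to 852 (WT) and 1724 (null) from 325 and 594, and the genotype difference at 3 h to 3 from 0; quantile normalization gave 2 there. Of the 5 genes, the block changed only the call of Irak3 at 6 h against 3 h in null, at -0.59 as without it, and quantile normalization gave -0.55. A pseudocount of 0.1 lowered the calls between genotypes at 3 h to 32 from 49, and line means those averaged over treatments to 0 from 1126.

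Leaving out 1 line at a time, counts of calls ranged from 137 to 4354 (WT, 3 h against SB), 89 to 3897 (WT, 6 h), 0 to 456 (WT, 6 h against 3 h), 243 to 2058 (null, 3 h), 384 to 1779 (null, 6 h), 0 to 0 (null, 6 h against 3 h), 0 to 2047 (null against WT, SB), 0 to 136 (3 h), 0 to 1508 (6 h) and 17 to 3822 (averaged over treatments). The log2 values at 6 h against 3 h ranged from -1.50 to -1.31 for Fbxo15, -0.59 to -0.47 for Enpp2 and -0.79 to 0.015 for Rab20 in WT, and from -1.22 to -1.17 for Fbxo15, -0.63 to -0.58 for Enpp2 and -0.063 to 0.045 for Btbd17 in null. Null against WT ranged from -0.33 to 0.043 for Btbd17 and -0.073 to 0.56 for Rab20 at 3 h, and from -0.19 to 0.076 for Btbd17, -0.0033 to 0.25 for Irak3 and -0.23 to 0.30 for Rab20 at 6 h. The genotype difference in the change ranged from -0.21 to 0.0088 for Fbxo15 and -0.30 to 0.026 for Irak3 at 3 h, from -0.022 to 0.25 for Fbxo15 at 6 h, and from -0.61 to 0.20 for Rab20 between 3 and 6 h. On the log2 scale the shares reached at 3 h moved to 28.2% for Fbxo15 and 64.1% for Enpp2. With 2 lines per genotype, and few steps for Rab20, small differences were not detectable; a line left alone in its group is assumed to vary like the others.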
